A study of Mus musculus with 2 samples.

Results

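Kmt2d, Kmt2c, Arid1a, Crebbp, Ep300, Tsc1, Rb1, Trp53, Cdkn1a and Cdkn2a are genes often mutated or deleted in urothelial carcinoma, and their chromatin was examined here in normal mouse bladder. They were taken by their GENCODE M21 symbols and are 10 of the 21755 protein-coding genes on chromosomes 1 to 19 and X. The data are DNase-seq libraries from the urinary bladders of 2 female B6CASTF1/J mice aged 36 days, numbered 5 and 6 in the labels, with 1 library per animal (replicates 1 and 2). B6CASTF1/J is the first-generation hybrid of C57BL/6J and CAST/EiJ, and its 2 alleles were not analysed apart here. Both animals form 1 group with no control and no other condition. No test between groups was therefore possible, and the spread between the animals, given as SD with n = 2, is the only replicate error.

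DNase I cuts DNA that is not wrapped tightly in nucleosomes, so a peak of cuts marks open chromatin, and a footprint is a short stretch inside it that is protected from cutting, usually by a bound protein. The 10 genes belong to a few linked systems. Kmt2d and Kmt2c are the methyltransferases of COMPASS-like complexes that put the first methyl group on histone H3 lysine 4 at enhancers, Crebbp and Ep300 are acetyltransferases that act at the same enhancers, and Arid1a is a DNA-binding subunit of the BAF nucleosome remodeller. Tsc1 restrains mTOR complex signalling, Rb1 holds E2F factors back from starting DNA replication, Trp53 is the stress-activated factor p53, Cdkn1a encodes the kinase inhibitor p21 that p53 induces, and Cdkn2a encodes p16Ink4a and p19Arf, which protect Rb1 and p53. All of them except the kinase inhibitors are made in most cell types, and the Cdkn2a products are typically low in young tissue and high in senescent cells.

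The deposited peak lists held 117740 peaks in replicate 1 and 102639 in replicate 2, and the footprint lists 280043 and 247801. Peak height is the authors' signal, whose scaling is not given in the sources used here, and the read depth is unknown, so heights are compared mainly within an animal. An annotated transcript start was called open where a peak overlapped the 250 bp on either side of it, with starts within 100 bp of each other taken as 1 start. The tissue label was checked against cell type markers. A start open in both animals was found for 10 of 10 urothelial markers, 6 of 7 smooth muscle markers (not Actg2), 4 of 5 fibroblast markers (not Lum), 3 of 4 endothelial markers (Pecam1 in replicate 1 only) and 1 of 4 liver markers, a tissue that should be absent. Since 64.2% of all protein-coding genes had such a start, these small counts are only a weak check of the label. The open liver marker, Cyp2e1, had a mean start height of 0.903. That was above the urothelial marker Krt20 (0.502) and below the other urothelial markers. Whole bladder mixes these cell types, so few cells with a very open site and many cells with a weakly open site cannot be told apart.

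All 10 genes had at least 1 start open in both animals, against 64.2% of all protein-coding genes and 94.3% of the protein-coding genes with a CpG-rich start. The count was 8 with the authors' smaller peak lists, where Kmt2d and Cdkn2a lost their open start, and 5 when a peak had to cover the start base itself (Kmt2c, Crebbp, Rb1, Trp53 and Cdkn1a). The share of all protein-coding genes under these 2 stricter rules was not computed. Of the 109 genes in the pathway lists described below, 108 and 93 were open under them. Their 67 annotated transcripts begin at 48 distinct starts, of which 15 were open in both animals (31.2%) and 33 in neither, and no start was open in 1 animal only. Over all protein-coding genes, 36.0% of starts were open in both, 38.8% in replicate 1 and 38.2% in replicate 2. Arid1a, Crebbp, Ep300 and Rb1 had more than 1 open start, 4 of the 10 genes, and of all protein-coding genes with several starts 39.3% did. CpG content followed this split. All 14 CpG-rich starts, which belong to 9 of the genes, were open, beside 89.5% of CpG-rich starts of all genes, while 1 of 34 CpG-poor starts was open, beside 17.9% of all. That exception was the first start of Trp53, whose surroundings have 55.4% GC and an observed-to-expected CpG ratio of 0.52, under the minimum of 0.65 used for the class. None of the 33 closed starts had a base listed at a false discovery rate of 0.05 or below in either animal, so no cutting at this level was listed there beyond the absence of a peak.

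The highest start peak varied among the genes more than it did between the animals. Ep300 had the highest value in replicate 1 (11.0) and Arid1a in replicate 2 (5.63), while Kmt2d was lowest in both (1.07 and 1.09). The median over the 10 genes was 4.56 in replicate 1 and 3.69 in replicate 2, next to 5.10 and 3.64 for all protein-coding genes open in both animals and 6.20 and 4.27 for those with a CpG-rich start. In each animal, 5 of the 10 genes lay above the median of all open genes. Start heights as a group were therefore near those of all open genes, but their median was below that of open genes with a CpG-rich start in each animal. Heights were generally lower in replicate 2, by a median log2 ratio of replicate 2 to replicate 1 of -0.54 (SD 0.39 over genes), and the median over the 10 genes was -0.45. Ep300 (-1.18) and Cdkn2a (0.64) were the farthest from that shift.

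**Figure D1:**
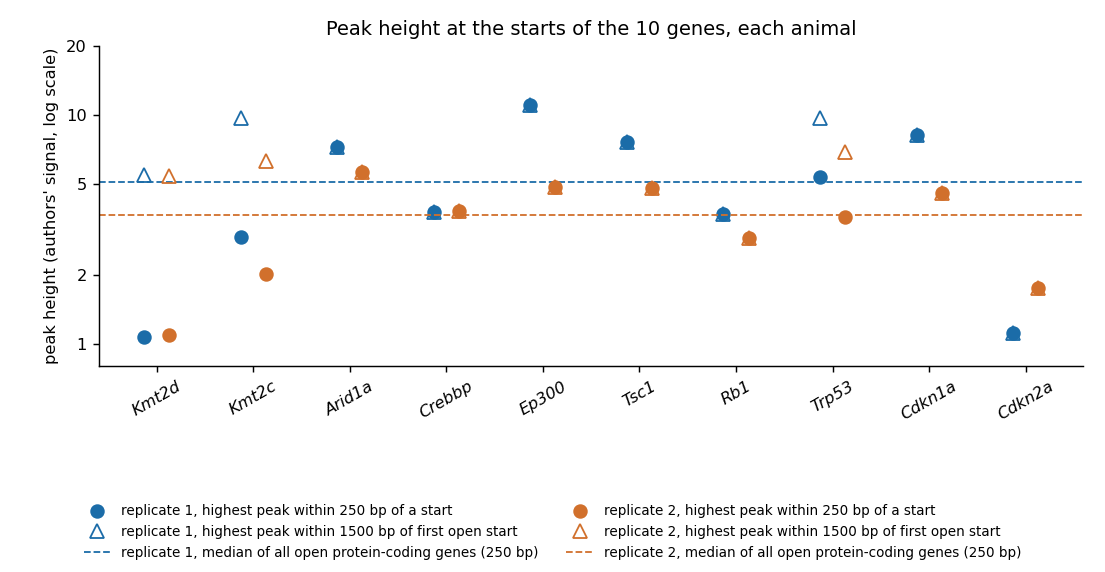
Height of the highest peak within 250 bp of an annotated start (filled circles) and of the highest peak within 1500 bp of the first open start (open triangles) for each of the 10 genes in each animal, on a log scale of the authors' signal. Dashed lines are the medians of all protein-coding genes open in both animals (5.10 in replicate 1 and 3.64 in replicate 2). Circle and triangle part for Kmt2d, Kmt2c and Trp53, whose tallest peak lies farther upstream.

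Kmt2d (ENSMUSG00000048154.17, chr15:98831669-98871204, minus strand) had 1 of its 4 starts open, the first, and only weakly, and it was not open in both animals in the smaller lists. The start peak was 1.07 high in replicate 1 and 1.09 in replicate 2 (1.08 ± 0.015), in the 11.6th and 14.8th percentiles of open genes, and had its middle 217 and 214 bp inside the gene, over its first exon. The lowest false discovery rate around this start was 3.9e-04 and 6.6e-04, many orders of magnitude above those at the other members' first open starts except Cdkn2a. A taller peak stood outside the start window. It measured 5.46 and 5.43 (5.45 ± 0.021), with its middle 1017 bp upstream in replicate 1 and 937 bp upstream in replicate 2, inside the annotated gene Gm49437. The 3 other starts of Kmt2d, 14895, 21967 and 34040 bp into the gene, were closed.

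Around Kmt2d, the highest peak marked the start of its downstream neighbour Prkag1, a subunit of the energy-sensing kinase AMPK, with 11.9 in replicate 1 and 5.63 in replicate 2 (8.77 ± 4.4). The start of Rhebl1, a small GTPase related to the mTOR activator Rheb, lay 10147 bp upstream and had a peak of 5.84 and 3.02 (4.43 ± 2.0). Both neighbours were thus higher than the start window of Kmt2d itself in each animal. Inside the gene, an exonic peak 20303 bp from the 5′ end measured 1.26 and 0.807, and an intronic peak at 3697 bp measured 1.12 and 0.934.

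Kmt2c (ENSMUSG00000038056.15, chr5:25271798-25498783, minus strand) is the longest of the genes at 227 kb, and its open chromatin was gathered at the 5′ end. The first start was open at 2.93 in replicate 1 and 2.01 in replicate 2 (2.47 ± 0.65), and the other 4 starts, 190233 to 217383 bp into the gene, were closed. As at Kmt2d, the tallest peak lay upstream of the window: 9.70 in replicate 1 and 6.26 in replicate 2 (7.98 ± 2.4), with its middle 918 bp before the start in both animals. It falls inside the long non-coding RNA gene 4831440E17Rik, which starts 284 bp upstream of Kmt2c and runs in the opposite direction. The peak of 2.93 at the Kmt2c start in replicate 1 also lies within 250 bp of the start of 4831440E17Rik. In replicate 2 a peak of 880 bp covered the start and the beginning of the first intron. It overlapped another peak of 740 bp (1.69), where replicate 1 had separate peaks of 2.93, 1.18 and 1.54. Only 3 further sites in the gene body, all intronic, were found in both animals, at 62522, 77992 and 201712 bp, with heights of 1.46 to 1.52 in replicate 1 and 0.493 to 1.18 in replicate 2.

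The upstream Kmt2c peak is shown because it is the strongest element of the locus and because footprints found in both animals cover 92 of its 240 bases. Capitals mark bases inside a footprint in both animals, in mm10 and in the direction of Kmt2c.
Kmt2c upstream peak, chr5:25499581-25499820, minus strand: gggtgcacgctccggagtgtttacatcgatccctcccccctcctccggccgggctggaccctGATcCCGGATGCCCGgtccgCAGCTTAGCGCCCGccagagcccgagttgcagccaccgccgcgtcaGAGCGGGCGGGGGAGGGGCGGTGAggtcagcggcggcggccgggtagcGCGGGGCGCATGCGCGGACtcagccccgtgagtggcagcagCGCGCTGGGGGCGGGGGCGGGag
The second block from the end covers the palindromic NRF1 motif, 856 bp before the start, and NRF1 is a factor of nuclear-encoded respiratory genes that binds CpG-rich promoters. This motif was in 0.150% of all footprints of replicate 1 and 0.169% of replicate 2. The blocks on either side of it hold GC boxes (GGGCGG), the binding motif of SP and KLF factors.

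Arid1a (ENSMUSG00000007880.16, chr4:133679008-133756769, minus strand) had the richest open chromatin of the 10 genes. The gene and its 20 kb flanks held 26 peaks in replicate 1 and 23 in replicate 2, that is 2.21 and 1.95 peaks per 10 kb, in the 93.4th and 92.9th percentiles of protein-coding genes. Of these, 24 in replicate 1 and all 23 in replicate 2 were found in the other animal. The first start was open at 7.20 and 5.63 (6.42 ± 1.1), just upstream of the start base. Starts 2787 and 3158 bp into the gene were also open, over a shared low peak of 1.69 and 1.50 (1.60 ± 0.13), and the starts at 32890 and 35993 bp were closed.

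The tallest Arid1a peak was not at a start but in the first part of the gene, 2378 bp from the 5′ end and 409 bp before the start of Arid1a-203. It measured 11.9 in replicate 1 and 7.52 in replicate 2 (9.71 ± 3.1), above the first start in both animals. Intronic peaks followed at 26978, 49608 and 55688 bp, with 2.46, 2.37 and 2.02 in replicate 1 and 1.49, 1.66 and 1.39 in replicate 2. Upstream, a peak 18012 bp from the gene measured 3.94 and 2.18. Downstream, the start of Pigv, an enzyme of GPI anchor synthesis, had 5.57 and 5.81 (5.69 ± 0.17).

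The intronic peak of Arid1a is printed with capitals for bases within a footprint in both animals (mm10, direction of Arid1a). It carries the longest footprint stretch common to both animals over the 10 loci, 42 bp with the same boundaries in each.
Arid1a intron peak, chr4:133754281-133754500, minus strand: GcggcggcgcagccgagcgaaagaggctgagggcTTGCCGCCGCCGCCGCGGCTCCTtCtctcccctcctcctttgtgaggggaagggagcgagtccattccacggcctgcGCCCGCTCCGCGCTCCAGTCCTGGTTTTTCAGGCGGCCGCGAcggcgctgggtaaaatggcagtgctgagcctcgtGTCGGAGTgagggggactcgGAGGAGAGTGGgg
That 42 bp block held none of the motifs searched. The GC content of the peak was 69.5%.

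Crebbp (ENSMUSG00000022521.10, chr16:4081328-4213997, minus strand) and Ep300 (ENSMUSG00000055024.12, chr15:81585351-81652077, plus strand) are close paralogs, and the same arrangement was seen at both: the first start open, a second one under 1 kb inside the gene open and lower, and the other 6 starts closed. At Crebbp the first start had 3.77 in replicate 1 and 3.81 in replicate 2 (3.79 ± 0.028), and the inner start, 584 bp further on, had 1.75 and 1.19 (1.47 ± 0.40). At Ep300 the first start had 11.0 and 4.83 (7.90 ± 4.3), and the inner start, 869 bp further on, had 3.96 and 3.80 (3.88 ± 0.12). Ep300 was the higher of the pair in both animals, but its excess in replicate 2 was small against the spread between its own libraries. The 2 parts of the Ep300 start region also behaved differently between the animals, since the first peak was lower in replicate 2 and the inner one almost equal.

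Away from their starts, both acetyltransferase genes were sparse. Crebbp, 133 kb long, had a single intronic peak in both animals outside its 5′ end, 53291 bp in, with 0.592 and 0.578 (0.585 ± 0.0099). Replicate 1 alone had 5 low peaks of 0.324 to 0.418 over exon sequence near the 3′ end of Crebbp, and 46.2% of its Crebbp peaks and 60.0% of those of replicate 2 were found in the other animal. Ep300 had a shared exonic peak at 64940 bp, near its 3′ end, with 1.04 and 0.824 (0.932 ± 0.15). The highest peaks in their flanks were at the starts of neighbours: Trap1, a mitochondrial chaperone, with 7.37 and 6.00 (6.69 ± 0.97) beside Crebbp, and L3mbtl2, a Polycomb protein, with 7.31 and 4.27 (5.79 ± 2.1) beside Ep300. Inside Trap1, 145196 bp from the 5′ end of Crebbp, a peak had 1.10 and 0.977 (1.04 ± 0.087), and inside L3mbtl2, 85011 bp from that of Ep300, another had 0.750 and 0.824 (0.787 ± 0.052).

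Ep300 had the most footprints of the 10 genes within 250 bp of its starts, counted over all of them, 17 in replicate 1 and 20 in replicate 2. The bases before its first start, the highest start peak of the set in replicate 1, are shown with footprint bases of both animals in capitals (mm10).
Ep300 before the first start, chr15:81585111-81585350, plus strand: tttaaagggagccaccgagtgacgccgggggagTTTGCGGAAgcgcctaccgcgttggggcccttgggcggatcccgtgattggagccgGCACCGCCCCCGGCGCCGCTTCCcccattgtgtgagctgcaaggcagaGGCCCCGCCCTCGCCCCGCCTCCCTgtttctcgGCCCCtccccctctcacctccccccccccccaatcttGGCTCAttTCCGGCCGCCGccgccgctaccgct
GC boxes lie 175, 148 and 99 bases before the start, CCAAT boxes 161 and 41 bases before it, and an ETS motif (CCGGAA) 26 bases before it. The ETS match and the GC boxes 148 and 99 bases before the start fell in or at the edge of footprints of both animals. The transcript 1110025M09Rik starts 323 bp upstream of Ep300 in the opposite direction. In both animals the peak at the first Ep300 start also lies within 250 bp of that start, so it cannot be assigned to Ep300 alone.

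Tsc1 (ENSMUSG00000026812.16, chr2:28641228-28691167, plus strand) had a single strong site. Its first start, which begins 7 of its 11 transcripts, was open at 7.57 in replicate 1 and 4.80 in replicate 2 (6.18 ± 2.0), and the 4 inner starts from 17339 to 31050 bp were closed. Every other peak of the gene body was low: the intronic site at 9473 bp had 1.05 and 0.858 (0.954 ± 0.14), and the exonic site at 40693 bp had 1.06 and 0.612. Its neighbours were lower too, with 3.02 and 2.27 (2.65 ± 0.53) at the start of Ak8, an adenylate kinase, and 1.15 and 0.926 (1.04 ± 0.16) at Spaca9. A peak at the start of Gfi1b, a blood cell repressor, was present in replicate 2 only (0.416).

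Rb1 (ENSMUSG00000022105.6, chr14:73183673-73325822, minus strand) had its first start and the one 181 bp inside it open under the same peak, of 3.69 in replicate 1 and 2.90 in replicate 2 (3.30 ± 0.56), and its 4 other starts closed. These heights are in the 38.4th and 40.3rd percentiles of open genes. The highest peak of the body, 87731 bp from the 5′ end with 1.79 and 1.59 (1.69 ± 0.14), is at the start of Lpar6, a lysophosphatidic acid receptor gene that sits inside an Rb1 intron. Further intronic peaks found in both animals had 1.26 and 1.27 (1.27 ± 0.0071) at 116371 bp and 1.18 and 1.16 (1.17 ± 0.014) at 711 bp, while that at 12201 bp had 1.41 and 0.544.

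The bases before the first Rb1 start are shown because footprints found in both animals cover some of the motifs searched that occur there (capitals, mm10, direction of Rb1).
Rb1 before the first start, chr14:73325823-73326062, minus strand: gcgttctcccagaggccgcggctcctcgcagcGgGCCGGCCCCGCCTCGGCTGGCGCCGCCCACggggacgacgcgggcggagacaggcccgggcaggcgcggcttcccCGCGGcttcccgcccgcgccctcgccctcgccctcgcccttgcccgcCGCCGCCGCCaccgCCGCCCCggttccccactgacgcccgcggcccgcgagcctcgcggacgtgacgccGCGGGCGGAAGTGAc
GC boxes lie 184, 165, 122, 70 and 13 bases before the start, and an E2F motif (TTCCCGC) lies 125 bases before it. The longest footprint block, 30 bases, spans the GC box 184 bases before the start, and the block next to the start spans the innermost. A further block covers the GC box 70 bases before the start, while those 165 and 122 bases before it hold no footprint base of both animals. No footprint base of both animals falls on the E2F motif. Within 300 bp before the start, E2F motifs stood at 4 of the 15 open starts, beside 9.92% of all CpG-rich starts and 3.82% of all starts. They belong to 3 genes, Rb1 with both of its open starts, Arid1a and Cdkn2a. The windows of the open Rb1 starts overlap, but their E2F matches are separate.

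Trp53 (ENSMUSG00000059552.13, chr11:69580359-69591873, plus strand) had a compact cluster of 3 tall peaks at its 5′ end in both animals. The first start, shared by 5 of its 6 transcripts, was open at 5.34 in replicate 1 and 3.57 in replicate 2 (4.45 ± 1.3). A taller peak upstream, with 9.65 and 6.91 (8.28 ± 1.9), had its middle 908 bp before the start in replicate 1 and 998 bp in replicate 2 and is at an annotated start of Wrap53, the antisense partner gene that encodes a telomerase and Cajal body protein. An intronic peak at 1162 bp had 6.02 and 3.69 (4.85 ± 1.6). The start used by Trp53-204, 8336 bp inside, was closed. A Wrap53 start also lies 104 bp before that of Trp53, so the peak at the Trp53 start cannot be assigned to either gene alone.

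Cdkn1a (ENSMUSG00000023067.14, chr17:29090976-29100727, plus strand) was open at its second start and closed at its first. The second start, 2793 bp inside the annotated gene and that of Cdkn1a-201, had 8.13 in replicate 1 and 4.54 in replicate 2 (6.34 ± 2.5), with the peak over the start base in both. The first start, used by Cdkn1a-202 and Cdkn1a-204, and the third, at 6924 bp, had no peak and no listed base. The tallest peak of the locus was intronic, 1782 bp past the second start (chr17:29095421-29095680), with 12.0 and 7.41 (9.71 ± 3.2). A lower peak between them, at the start of AC167363.2, had 3.80 and 2.41 (3.10 ± 0.98).

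The neighbouring Trp53cor1, the p53-induced non-coding RNA known as lincRNA-p21, begins upstream of Cdkn1a, and its start peak 11935 bp before the gene measured 6.95 in replicate 1 and 2.81 in replicate 2 (4.88 ± 2.9). A search for p53 response elements (a pair of adjacent decamers with up to 2 mismatches) found 2 in the locus, each with 1 mismatch. The first, at chr17:29079039-29079058, lay under the Trp53cor1 start peak in both animals. The second, at chr17:29090928-29090947, lay 48 bp before the closed first start and 2841 bp before the open one, at the place of the well-known distal p53 site of the mouse Cdkn1a promoter, and had no peak in either animal. Over the 10 loci there were 16 such elements, of which 3 lay in peaks in each animal, at Kmt2d, Rb1 and Cdkn1a. None lay whole within a footprint widened by 5 bp, but a footprint of both animals overlapped part of the Trp53cor1 element. A whole match to the element was present in 0.775% of all peaks of replicate 1 and 0.589% of replicate 2. This is a share of peaks, while the count of 3 is of elements that overlapped a peak, so they cannot be compared directly.

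Sequences of the Cdkn1a locus are given in mm10 on the plus strand, since the contrast of its starts is the clearest in the set. In the open second start and the intronic peak, capitals are bases in a footprint in both animals, and in the closed first start and the Trp53cor1 start they are the p53 element.
Cdkn1a before the second start, chr17:29093619-29093768, plus strand: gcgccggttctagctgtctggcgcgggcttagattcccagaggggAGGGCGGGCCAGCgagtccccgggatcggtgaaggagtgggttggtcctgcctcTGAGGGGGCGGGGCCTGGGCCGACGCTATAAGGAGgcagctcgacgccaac
Cdkn1a before the first start, chr17:29090896-29090975, plus strand: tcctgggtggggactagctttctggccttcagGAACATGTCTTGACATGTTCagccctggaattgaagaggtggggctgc
Trp53cor1 start, chr17:29078999-29079098, plus strand: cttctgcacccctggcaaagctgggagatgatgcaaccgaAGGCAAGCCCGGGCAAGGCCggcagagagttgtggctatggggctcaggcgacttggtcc
Cdkn1a intron peak, chr17:29095421-29095680, plus strand: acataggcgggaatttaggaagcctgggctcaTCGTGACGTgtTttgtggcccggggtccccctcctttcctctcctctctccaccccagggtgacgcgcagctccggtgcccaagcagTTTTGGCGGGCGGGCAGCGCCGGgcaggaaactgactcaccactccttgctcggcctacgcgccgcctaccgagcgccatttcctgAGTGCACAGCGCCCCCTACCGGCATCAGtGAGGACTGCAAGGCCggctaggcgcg
Before the second start, a footprint of 35 bases in both animals spans a GC box 46 bases before the start and a TATA box (TATAA) 25 bases before it. TATAA occurs in the 300 bp before 9.44% of CpG-rich starts and 26.8% of all starts, and among the 15 open starts of the 10 genes it was found only at Cdkn1a and Trp53. In the intronic peak, a footprint block of both animals covers a core CTCF motif 1867 bp past the second start, and another covers a GC box 1778 bp past it. CTCF is the factor that anchors chromatin loops, and this motif was in 0.979% and 1.02% of all footprints of the animals.

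Cdkn2a (ENSMUSG00000044303.6, chr4:89274471-89294653, minus strand) had the lowest start peak of the 10 genes after Kmt2d in mean height, and its 2 starts differed. The first start, that of Cdkn2a-202, which encodes p19Arf, was open at 1.12 in replicate 1 and 1.75 in replicate 2 (1.44 ± 0.44), in the 12.3rd and 25.1st percentiles of open genes, and was not open in both animals in the smaller lists. Its peak lay 338 and 358 bp before the start, the lowest false discovery rate near the start was 1.2e-03 and 4.1e-05, and no footprint lay within 250 bp of it. The second start, that of Cdkn2a-201, which encodes p16Ink4a, lies 12461 bp inside and had no peak and no listed base in either animal. The 1 other peak of the body was intronic and low (0.505 and 0.629).

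Cdkn2b, which encodes the related inhibitor p15Ink4b, contrasts with it 16408 bp upstream. Its start had a peak of 9.39 in replicate 1 and 6.17 in replicate 2 (7.78 ± 2.3), and a second peak inside Cdkn2b, 15978 bp from Cdkn2a, had 3.91 and 3.07 (3.49 ± 0.59). Both Cdkn2b peaks were above the Cdkn2a peak in each animal, with no overlap of values.

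The 3 starts of the locus are given in mm10 in the direction of Cdkn2a, with GC boxes and E2F motifs in capitals before the Cdkn2a starts and footprint bases of both animals in capitals at the Cdkn2b start.
Cdkn2a before the first start, chr4:89294654-89294893, minus strand: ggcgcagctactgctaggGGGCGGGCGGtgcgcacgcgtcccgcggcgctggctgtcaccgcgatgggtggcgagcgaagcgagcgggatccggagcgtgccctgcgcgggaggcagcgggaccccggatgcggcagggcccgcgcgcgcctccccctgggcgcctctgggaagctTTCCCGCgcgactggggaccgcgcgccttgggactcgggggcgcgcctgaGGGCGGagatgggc
Cdkn2a before the second start, chr4:89282193-89282432, minus strand: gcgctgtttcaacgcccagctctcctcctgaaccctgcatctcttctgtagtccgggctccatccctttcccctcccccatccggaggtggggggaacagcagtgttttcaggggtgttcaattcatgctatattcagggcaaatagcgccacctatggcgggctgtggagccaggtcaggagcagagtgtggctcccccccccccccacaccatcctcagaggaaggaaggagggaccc
Cdkn2b start peak, chr4:89311040-89311160, minus strand: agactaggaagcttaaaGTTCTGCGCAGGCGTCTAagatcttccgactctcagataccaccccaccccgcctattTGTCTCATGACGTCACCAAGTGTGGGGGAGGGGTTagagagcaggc
The p19Arf start has 78.3% GC with 37 CpG dinucleotides in 240 bases, while the same length before the p16Ink4a start has 60.8% GC with 6 and holds no GC box or E2F motif. At Cdkn2b, a footprint block of 35 bases covers a full cAMP response element (TGACGTCA), which was in 0.269% and 0.274% of all footprints.

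**Figure D2:**
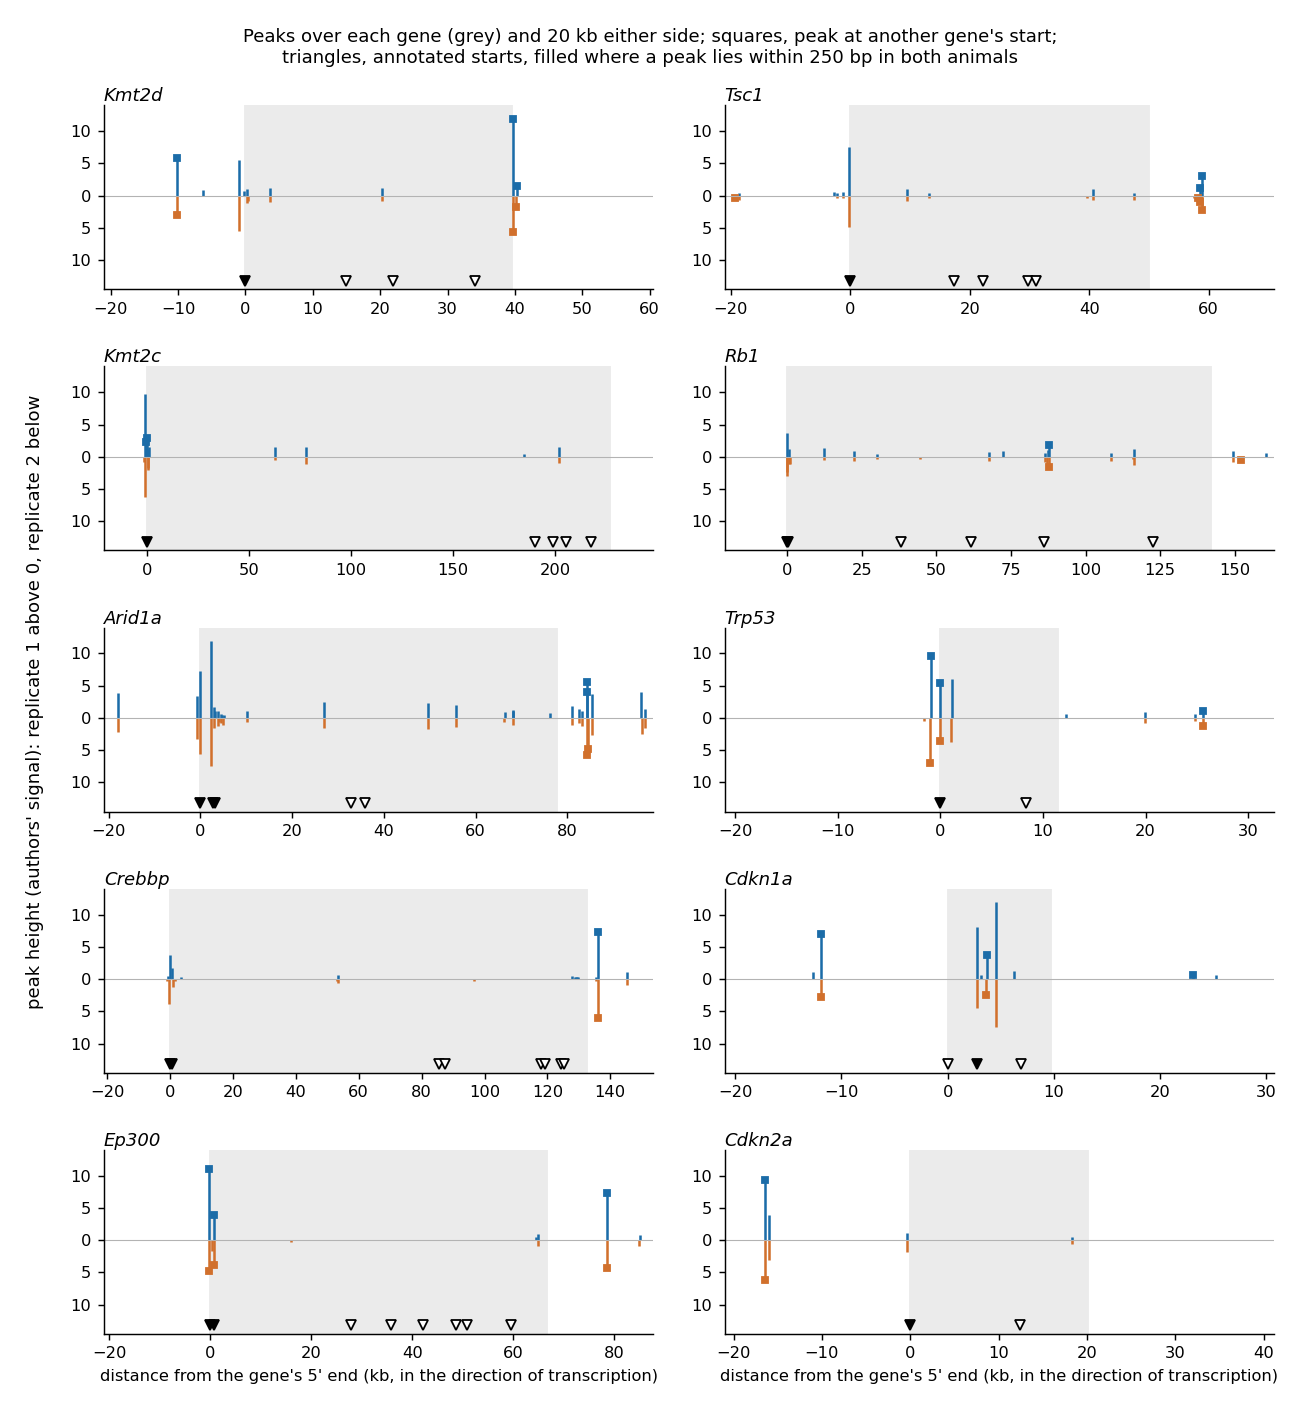
Peaks over each of the 10 genes (grey) and 20 kb on either side, with distance from the gene's 5′ end in kb in the direction of transcription and peak height upward for replicate 1 and downward for replicate 2. Squares mark peaks at starts of other genes, and triangles mark annotated starts, filled where open in both animals. Filled triangles gather at the 5′ ends, except at Cdkn1a where the first start is closed, and the tallest peaks of Kmt2d (11.9), Crebbp (7.37) and Cdkn2a (9.39) in replicate 1 belong to the neighbours Prkag1, Trap1 and Cdkn2b.

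Where the strongest opening stands relative to the start was described over the genes together. The tallest peak within 1500 bp of the first open start had its middle within 250 bp of that start in 5 of the 10 genes in replicate 1 and 6 in replicate 2, against 81.6% of all genes open in both animals in either replicate. Kmt2d, Kmt2c, Trp53 and Cdkn2a were the exceptions in both animals, and Tsc1 was in replicate 1 only (257 bp upstream in replicate 1, 147 bp in replicate 2). In all of these the tallest peak was upstream. Taken at that tallest peak, the median height of the 10 genes was 7.39 in replicate 1 and 4.82 in replicate 2, and that of all open genes was 5.16 and 3.67. This measure was added after the values had been seen.

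**Figure D3:**
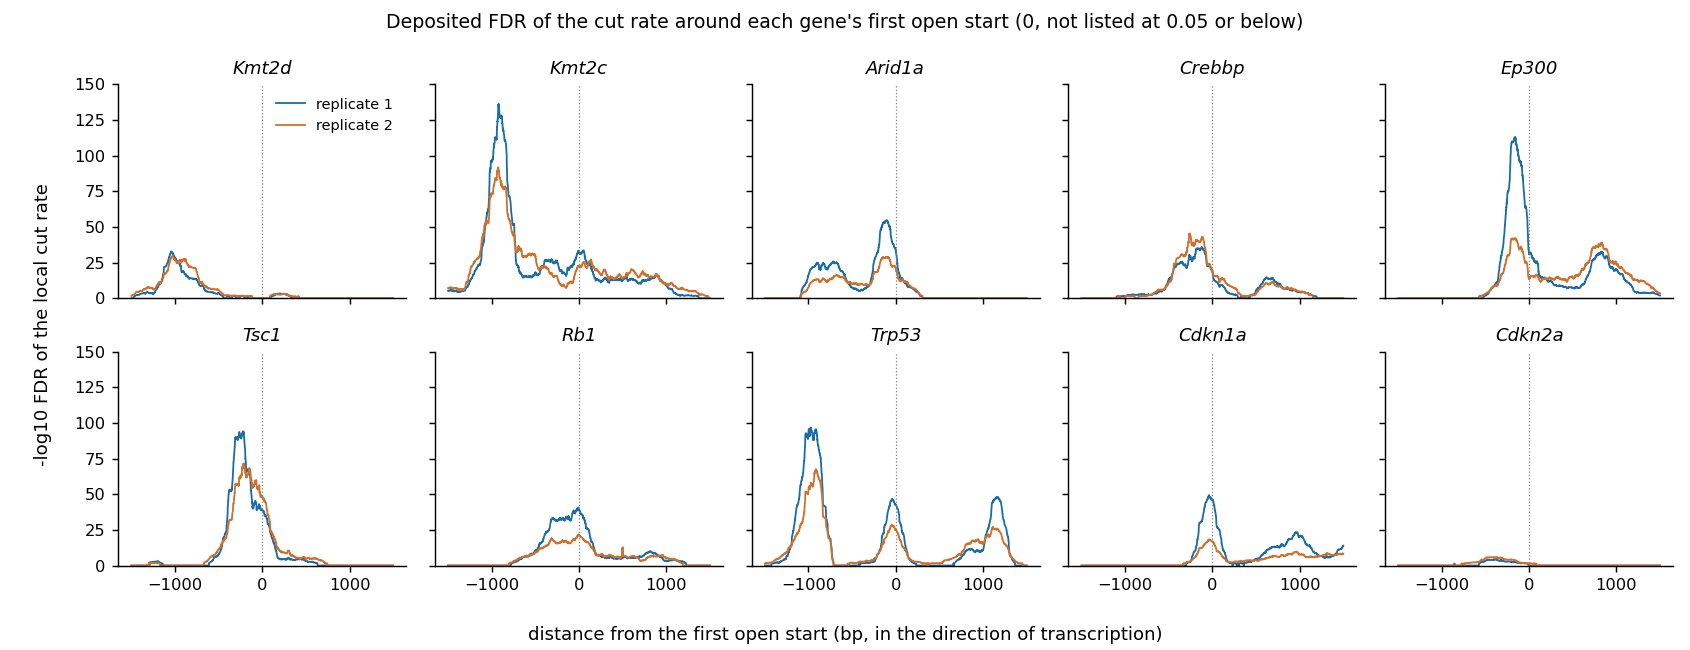
Minus log10 of the false discovery rate deposited for the cut rate at each base within 1500 bp of the first open start, in the direction of transcription, for each gene and animal, with 0 where no value of 0.05 or below is listed. The tallest called peaks of Kmt2c in this window have their middle 918 bp before the start, and those of Trp53 about as far before it. Cdkn1a has its tallest called peak of the window at the start itself, and Kmt2d and Cdkn2a stay close to 0 there.

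The genes with their flanks held 108 peaks in replicate 1 and 101 in replicate 2, of which 85 in each were found in the other animal (78.7% and 84.2%, beside 71.5% and 80.7% of all peaks). At the genes' own starts lay 16 and 15 of them, at starts of other genes alone 16 and 18, and at no annotated start 76 and 68. Neighbours not named so far were low: Atp1b2 downstream of Trp53 had 1.14 and 1.29 (1.21 ± 0.11), Rcbtb2 beside Rb1 had 0.544 in replicate 2 only, and Rab44 beside Cdkn1a had 0.632 in replicate 1 only. Gm23880 starts under the inner Ep300 peak. Peaks at own starts had a median height of 3.31 and 2.90, and those elsewhere in the loci 1.10 and 0.887. The median peak density over the 10 genes was 0.950 per 10 kb in replicate 1 and 0.869 in replicate 2, next to 0.777 and 0.678 for all protein-coding genes. Arid1a was at the top of that range and Kmt2c at the bottom, with 0.337 and 0.262 peaks per 10 kb.

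Summed over each locus, peak height differed between the animals about as it did for other genes. With the median log2 difference of all genes (replicate 2 minus replicate 1, -0.45) set to 0, the median over the 10 genes was 0.03, with 5 above and 5 below, and 7 of them lay between the quartiles of all genes (-0.18 and 0.27). Rb1 was the highest at 0.54, in the 95.4th percentile: its peaks covered 3909 bp with a mean height of 1.01 in replicate 2, and 3111 bp with a mean of 1.15 in replicate 1. In replicate 2 the sum for Rb1 counted a peak of 2.35 that lies inside the start peak of 2.90. It also counted peaks of 1.08 and 1.16 where replicate 1 had a single peak of 1.18. The effect of these extra peaks on the value was not tested. Cdkn1a was the lowest at -0.53, in the 1.89th percentile. It had 4 peaks covering 1280 bp with a mean height of 4.29 in replicate 2 and 9 covering 1794 bp with a mean of 3.89 in replicate 1, and the 5 peaks found in replicate 1 only were low, from 0.600 to 1.24. Read depth is unknown, and its part in these differences was not tested.

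**Figure D4:**
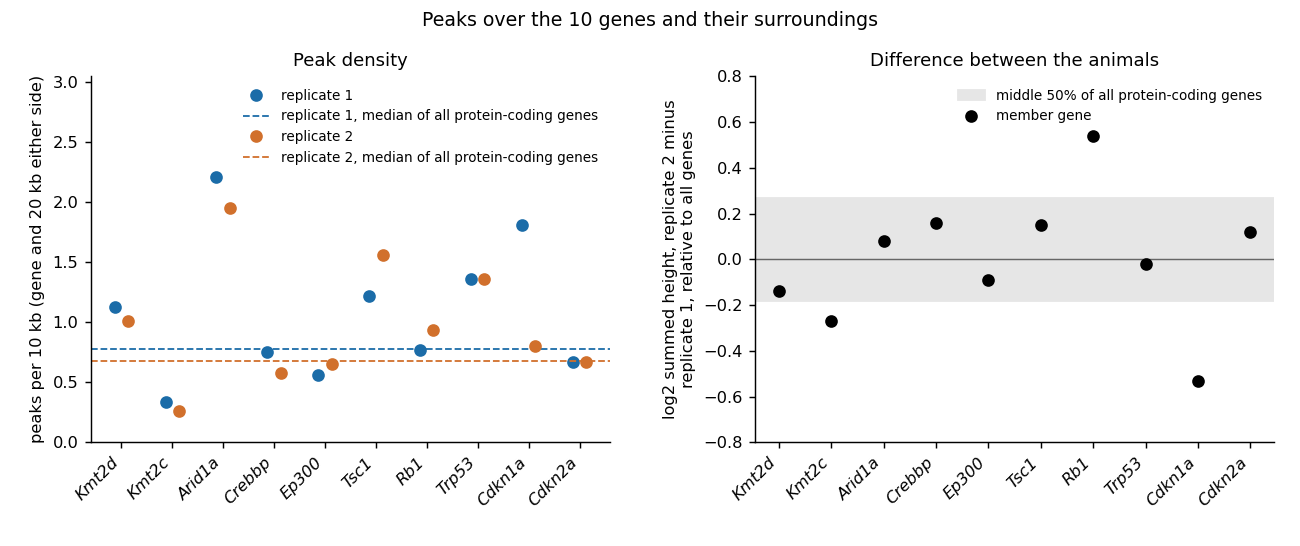
Left, peaks per 10 kb of each gene and its 20 kb flanks in each animal, with dashed medians of all protein-coding genes (0.777 and 0.678). Right, log2 of the summed peak height of replicate 2 over replicate 1, relative to the median of all genes, with the middle 50% of all genes in grey; Rb1 (0.54) lies above it, and Kmt2c (-0.27) and Cdkn1a (-0.53) lie below it.

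Footprints numbered 321 in replicate 1 and 329 in replicate 2 over the loci, and 180 and 183 of them were found in the other animal (56.1% and 55.6%, beside 44.8% and 52.2% of all footprints). Peaks held 255 and 259 of them, and 68 in each animal lay within 250 bp of a member's start. Their median density was 2.96 and 2.98 per 10 kb, against 2.03 and 1.89 for all protein-coding genes, with Arid1a (6.62 and 8.75) and Cdkn1a (6.83 and 4.02) the densest in replicate 1 and Arid1a in replicate 2. Of the motifs searched in footprints widened by 5 bp, the GC box alone occurred in footprints of both animals at all 10 loci. It was in 12.8% of the loci's footprints in replicate 1 and 11.6% in replicate 2, next to 7.80% and 8.01% of all footprints. The core of a cAMP response element (TGACGT) was in 2.80% and 2.13%, next to 0.820% and 0.803%, and occurred in footprints of both animals at 7 loci. These shares rest on 9 and 7 footprints. At Kmt2d, Crebbp and Cdkn2a the match in both animals lay at the start of the neighbour Prkag1, Trap1 or Cdkn2b. The only GC box footprint of both animals in the Cdkn2a locus also lay at the Cdkn2b start. In the 300 bp before the starts, a GC box stood at 14 of the 15 open starts, all but that of Trp53, beside 72.3% of CpG-rich starts of all genes. These starts belong to 9 genes, and the open Rb1 starts, 181 bp apart, have overlapping windows that share GC boxes. The shares were not matched for base composition.

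Genes listed as pathway partners of the members, or as further urothelial carcinoma genes, were open without exception. The lists were chosen with earlier results of these data known, so this count is a description and no independent support. In 7 pathway lists that leave out the members, 109 of 109 genes had a start open in both animals, against 64.2% of protein-coding genes. Of them, 99 have a CpG-rich start, and of all genes with such a start 94.3% were open. These were 13 COMPASS partners, 14 BAF subunits, 13 genes of histone acetylation, 12 of TSC and mTOR signalling, 19 of RB and cell cycle entry, 18 of the p53 pathway and 20 further urothelial carcinoma genes. Kdm6a, the H3K27 demethylase that joins Kmt2d and Kmt2c in their complex and is itself often mutated in bladder cancer, had 22.1 in replicate 1 and 10.9 in replicate 2 (16.5 ± 7.9), the highest start of all the lists. It exceeded both methyltransferase genes in each animal. Kmt2a, a related methyltransferase, followed in its list with 9.96 ± 2.2.

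In the other lists the highest mean start heights were of similar size (n = 2 each). The BAF subunits Smarcd2 and Smarca4, the remodeller's ATPase, had 14.1 ± 6.6 and 12.6 ± 6.1, and the acetyltransferase Kat6b and the deacetylase Hdac1 had 12.9 ± 6.3 and 9.54 ± 3.9. Rheb, the mTOR activator that Tsc1 opposes, had 11.5 ± 4.7, and the kinase Stk11 had 10.6 ± 4.6. In the RB list, Cdkn2d, encoding p19Ink4d, had 14.2 ± 6.5, and Ccne1, encoding cyclin E, had 12.7 ± 4.4. Atm, the DNA damage kinase, and Trp53inp1, a p53 target, had 12.0 ± 5.6 and 11.9 ± 5.8. Txnip, a thioredoxin regulator, and Nfe2l2, the oxidative stress factor, led the further carcinoma genes with 15.6 ± 7.1 and 13.5 ± 6.4. These genes were picked for their height. The median start height of the 10 genes was 4.56 in replicate 1 and 3.69 in replicate 2, below that of each of the 7 whole lists in both animals, for example 8.60 and 5.91 for the COMPASS partners, 7.55 and 4.76 for the RB list and 5.98 and 4.66 for the acetylation genes. This ranking holds for peaks within 250 bp of a start. Within 1500 bp of the first open start, the medians of the 10 genes were 7.39 and 4.82. The lists were not measured in that wider window.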

How the data were processed

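DNase-seq was done on whole urinary bladder of 2 animals, 1 library each, which form 1 group. Per the deposited descriptions, the authors called peaks and footprints in each animal separately from mm10 alignments. Aligner, peak caller and thresholds: not given in the sources used here. Peak height is the deposited signal of each peak, as the authors gave it, and its scaling and the read depth are unknown, so no counting interval is given. Values of p-value type are the authors' false discovery rate for the cut rate around each base, listed from 0.05 downward, and a constant 0.01 on every deposited footprint, so footprints were not ranked. The authors deposited 2 peak lists per animal, and the larger was used. Some peaks within a list overlap, and each was counted.

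Genes came from GENCODE M21 and sequence from GRCm38, whose chromosome lengths held every peak. Starts within 100 bp were merged, an open start had a peak within 250 bp, a locus was the gene with 20 kb on either side, features overlapped from 1 bp on, and summed heights were compared as log2(sum + 1). CpG-rich starts had at least 55% GC and a CpG ratio of at least 0.65 in 500 bp. Motifs were sought on both strands in footprints widened by 5 bp and in the 300 bp before starts. Steps were tested on simulated data. Python 3.11.15, numpy 2.4.6, pandas 2.3.3, pysam 0.24.0 and matplotlib 3.10.9 were used.

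The members, lists, 16 motifs and the naming rule were chosen with earlier results of these data known. The TATA box and the peak within 1500 bp were added after values were seen. The rule names all members, the 3 highest peaks found in both animals outside start windows in each locus, neighbours whose starts carry a peak, and in each pathway list the 2 genes with the highest start peak and any gene with no open start. No test was run. The result of the leukocyte marker list is not reported here.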

Additional observations from a re-analysis of the deposited data

How the results depend on the processing

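No paired analysis was possible because the 2 animals form 1 group. The count of 10 genes with an open start stayed at 10 with 1 kb windows, with the higher 50% of peaks, and without replicate 1 or 2, was 8 with the smaller peak lists, where Kmt2d and Cdkn2a lost their start, and was 5 when the start base itself had to be covered. Of the starts, 15 were open with either animal left out, 5 by the start base alone, and 28 with each distinct start base counted apart. The share of peaks found in both animals (81.4% over both lists) was 60.4% with 50% overlap of both peaks and 89.4% in the smaller lists. The median peak density (0.909 per 10 kb) was 1.05 with 10 kb flanks, 0.541 with the smaller lists, 0.529 with the higher 50% of peaks, and 0.869 to 0.950 with 1 animal left out. The median start height (4.12) was 6.33 with 1 kb windows, which take in upstream or inner peaks of Kmt2d (5.44), Kmt2c (7.98), Arid1a (9.71) and Trp53 (8.28), and 3.69 to 4.56 with 1 animal left out. The median difference between the animals (0.03) was 0.08 with a pseudocount of 0.1, -0.02 with 10 kb flanks, -0.06 with peaks found in both animals and 0.05 with the smaller lists, so its sign is not settled. Of the 109 pathway genes, 93 were open by the start base and 108 in the smaller lists. With 2 animals and unknown depth, an unlisted site may still be weakly open.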
